A study of Homo sapiens with 18 samples.

Results

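The EGR and NR4A genes are immediate early genes for transcription factors, and their RNA was examined here across 18 RNA sequencing libraries. All came from SH-SY5Y, a human neuroblastoma cell line that is long established. The members were named by symbol with no cut on a measured value, though earlier results of these data were known. They are EGR1, EGR2, EGR3, EGR4, NR4A1, NR4A2 and NR4A3, which are 7 of the 58735 genes in the deposited count table. The cells were wild type, and those of all groups, Control included, had first been brought to a neuron-like state by all-trans retinoic acid (10 µM over 7 days). There were 6 groups of 3 libraries, and each exposure lasted 15 min. Control received water, Morphine was given at 193 nM and Metamorphine at 169 nM, and the dose of TRV130, Beta-Endorphin and Naloxone was 200 nM. Morphine and TRV130 activate the µ-opioid receptor, beta-endorphin is an endogenous opioid peptide, and naloxone blocks opioid receptors. The library names carry 1 of 3 codes, called A, B and C here, and the labels do not say what the codes stand for. Code A holds 7 libraries, B holds 6 and C holds 5. Control has 1 library of each code, while TRV130 lacks code C and has code A in 2 libraries and B in 1. For the other groups the replicate number runs with the code, so that replicates 1, 2 and 3 are codes A, B and C. Whether replicates were grown separately is not in the labels, and the p-values therefore speak to variation among these libraries, which may be technical.

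Immediate early genes are transcribed within minutes of a stimulus without the need for new protein. The EGR proteins are zinc finger activators that bind GC-rich sites, and the NR4A proteins are orphan nuclear receptors that act without a known natural ligand and bind NBRE sites. In neurons, calcium, cyclic AMP and the ERK kinase cascade switch these genes on through SRF with its ternary complex factors, through CREB and through MEF2, and receptors coupled to inhibitory G proteins, such as the opioid receptors, can act on the same cascades. Each exposure here lasted 15 min and no later time was sampled, so a later change in these genes would not be seen.

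The libraries held 21211449 to 33123855 counts each, and 3 of them stood apart. Taking the 3647 protein-coding genes whose median count was 0, Control 1 held 20888 reads, Naloxone 1 held 3074 and Naloxone 2 held 1495, against 276 to 1052 in the other libraries. Control 1 is the Control of code A, and values without it stand beside several of the results that it moved. All 10 noradrenergic neuroblastoma markers were present, DBH and STMN2 among them, with a summed level of 5219 to 7096 counts-per-million (CPM, scaled by TMM effective library sizes). Immune markers summed to 7.31 to 12.9 CPM in Control and 4.48 to 10.6 CPM in the ligand libraries, epithelial markers to 4.50 to 15.0 CPM and 2.80 to 5.21 CPM, and Schwann and glial markers to 8.61 to 13.9 CPM and 6.70 to 9.67 CPM. In Control 4 of 6 immune and 4 of 6 epithelial markers averaged under 1 CPM, and CD3E and KRT5 were at 0 in 4 of 5 ligand groups each. Fibroblast and endothelial markers, led by PDGFRB and DCN, summed to 81.3 to 172 CPM in Control and 84.0 to 188 CPM in the ligand libraries. Their part in the results was not tested. Mitochondrial genes took 4.66% to 17.7% of the counts.

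The 7 genes differed widely in level. In transcripts-per-million (TPM), a unit that takes gene length into account, the mean over the 18 libraries was 436 for EGR1, 10.2 for NR4A1, 1.99 for EGR3, 1.15 for EGR2, 0.211 for EGR4, 0.0897 for NR4A3 and 0.00843 for NR4A2. EGR1 ranked 203 of the 46594 genes with a read, and NR4A1 ranked 9771. The order from EGR1 to NR4A1 to EGR3 held in 18 of 18 libraries. EGR3 was above EGR2 in 15 of 18 libraries, so that this pair of neighbours was not separated beyond its spread. EGR2 was above EGR4 in 18 of 18 libraries and EGR4 above NR4A3 in 17 of 18. EGR1, EGR2, EGR3, NR4A1 and NR4A3 passed the filter on low counts and were tested. EGR4 and NR4A2 were not, and NR4A3 passed with only 2 to 15 reads per library.

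**Figure D1:**
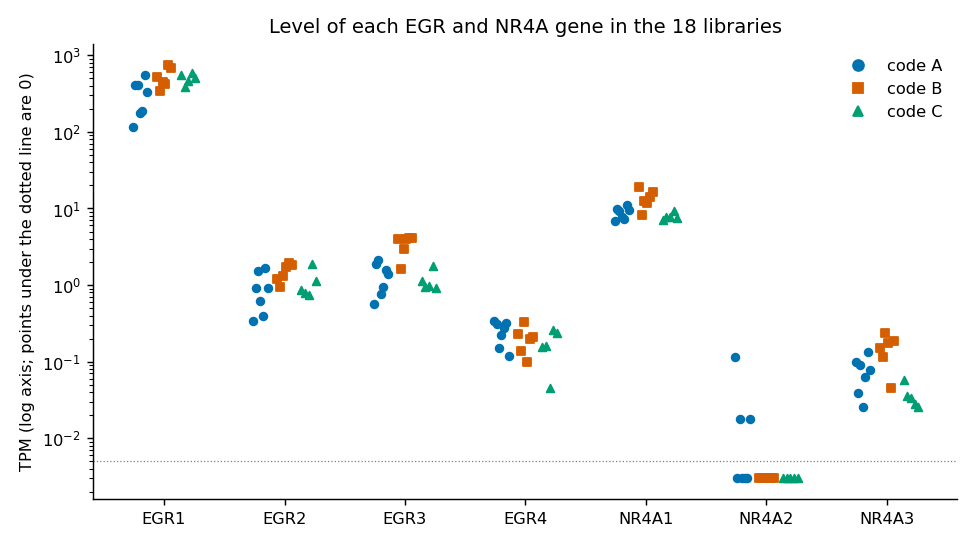
Level of each of the 7 genes in TPM on a log axis, 1 point per library, with colour and shape for the library code. EGR1 runs from 114.5 to 755.9 TPM with a mean of 436, NR4A1 runs from 6.945 to 18.85 TPM with a mean of 10.2, and NR4A2 is at 0 in 15 of 18 libraries.

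EGR1 encodes the founding EGR factor, widely used as a readout of neuronal and growth factor signalling. The gene lies on chromosome 5 of GRCh38 (chr5:138465490-138469315, plus strand, protein coding, ENSG00000120738). EGR2, a factor best known for hindbrain and Schwann cell myelin programs, lies on the minus strand of chromosome 10 (chr10:62811996-62919900, ENSG00000122877). Their upstream windows are printed because EGR1 and EGR2 varied together between libraries (r = 0.73, described with the likeness of patterns) and both hold the SRF element called the CArG box. That r was not particular to the pair, as EGR1 had 0.80 with the early response gene DUSP1 and 0.72 with EGR3. Whether the shared element has a part in the likeness was not tested. Each sequence is the 250 bases before a RefSeq start (GRCh38.p14) and holds no base of an exon of the gene in GENCODE 29. The EGR2 window lies within the span of the gene, before 1 of its 3 RefSeq starts. The windows before its other starts held no CArG box. Capitals mark CArG boxes and TGACG, the core of the cyclic AMP response element that CREB binds, on either strand (CGTCA where it lies on the minus strand).
EGR1 (chr5:138465229-138465478, plus strand): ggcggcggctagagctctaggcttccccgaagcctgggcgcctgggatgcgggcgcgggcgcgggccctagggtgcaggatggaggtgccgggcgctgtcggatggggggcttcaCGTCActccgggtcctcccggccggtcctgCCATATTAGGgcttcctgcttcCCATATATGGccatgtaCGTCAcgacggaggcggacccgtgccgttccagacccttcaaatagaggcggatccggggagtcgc
EGR2 (chr10:62816367-62816616, minus strand): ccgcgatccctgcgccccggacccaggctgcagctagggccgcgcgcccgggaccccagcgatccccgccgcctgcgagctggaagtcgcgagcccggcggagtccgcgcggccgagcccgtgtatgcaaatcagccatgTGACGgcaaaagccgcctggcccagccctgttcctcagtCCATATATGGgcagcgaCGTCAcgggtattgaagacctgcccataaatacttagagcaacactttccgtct

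In the EGR1 window the CArG boxes lie 105 to 96 and 83 to 74 bases upstream of the start, and the TGACG matches lie 135 to 131 and 66 to 62 bases upstream. A match to the EGR motif GCGNGGGCG lies 198 to 190 bases upstream in the same window and is left in lower case. The EGR2 window has a CArG box 71 to 62 bases upstream with TGACG matches on both sides of it, at 110 to 106 and 54 to 50 bases. Over all 35116 RefSeq windows of this length, 1.16% held a CArG box, 21.2% held TGACG, 8.41% held GCGNGGGCG and 1.05% held the NBRE AAAGGTCA, counting both strands. Of the 7 members, 5 had windows in the RefSeq table, 8 windows in all. The EGR4 window held 2 TGACG matches and the NR4A3 window held 4. The windows of NR4A1 and the other windows of EGR2 held none of these motifs. A match describes letters in the window and is not evidence of binding.

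EGR1 RNA spread more widely within Control than within any ligand group. It stood at 282, 926 and 812 CPM in Control 1, 2 and 3, which is 673 ± 344 (SD, n = 3). In Morphine the 3 libraries held 601.5, 521 and 615 CPM, and in Metamorphine 579.7, 581.5 and 649 CPM. Both groups lay between the lowest and the highest Control. TRV130 gave 408, 403 and 565 CPM, with its 2 libraries of code A lowest. Beta-Endorphin gave 705, 1043 and 828 CPM and held the highest EGR1 level of all libraries. Naloxone gave 489.5, 934 and 698 CPM. Control 1 was the lowest library of all, and every ligand group overlapped Control.

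The fit placed each ligand against Control with the library code in the model. The code term is estimated over all groups, so a fitted value can differ from the median difference to the Control of the same code. In TRV130, which has no code C library, that median was 0.51 for EGR1 and 0.33 for EGR3, with fitted values of -0.34 and -0.17. No EGR or NR4A gene passed the test against Control in any of the 5 ligands. In Morphine, Metamorphine, TRV130, Beta-Endorphin and Naloxone, 0 of the 5 tested members passed an adjusted p of 0.05 (edgeR quasi-likelihood test, Benjamini-Hochberg over 23231 genes), and in each of these comparisons 0.0% of all genes did. At an unadjusted p under 0.05 there was 1 member each in Morphine and in Metamorphine (NR4A1 both times) and 1 in Beta-Endorphin (EGR2), against 14.7%, 23.6% and 27.8% of all genes, and none in TRV130 or Naloxone, against 4.46% and 22.5%. DESeq2 with the code in its model called no member for which it gave an adjusted p. It gave none for EGR2, EGR3 and NR4A3 in Metamorphine and Naloxone, nor for NR4A3 in Beta-Endorphin. As these are bulk samples, fewer cells that express a gene and less of its RNA per cell cannot be told apart. The 5 comparisons share the 3 Control libraries, so their values stand side by side and are not independent of each other.

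EGR1 stood at -0.10 (SE 0.26, 95% interval -0.65 to 0.44) on the log2 scale in Morphine, -0.06 (-0.60 to 0.49) in Metamorphine, -0.34 (-0.91 to 0.23) in TRV130, 0.42 (SE 0.26, -0.12 to 0.97) in Beta-Endorphin and 0.12 (-0.42 to 0.66) in Naloxone. The adjusted p was 0.847, 0.900, 0.977, 0.281 and 0.789 in that order. The intervals leave room for a change of up to 0.97 upward in Beta-Endorphin and 0.91 downward in TRV130. Without Control 1 the values were -0.47 in Morphine, -0.41 in Metamorphine, -0.76 in TRV130, 0.06 in Beta-Endorphin and -0.22 in Naloxone. The Naloxone value turned its direction, and the mean of the 5 ligands went from 0.01 to -0.36.

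Set against the Control of their own code, the EGR1 medians had opposite signs, a difference that was not tested since each code has 1 Control. All 6 ligand libraries of code A were above Control 1, by 0.51 to 1.32 on the log2 CPM scale, with a median of 0.92. In code B, 2 of 5 ligand libraries were above Control 2 and the median difference was -0.67, and in code C, 1 of 4 was above Control 3 with a median of -0.27. Of all tested genes, 34.7% had every ligand library of code A above its Control. Beta-Endorphin was the ligand in which all 3 libraries lay above their Control, by 1.32, 0.17 and 0.03, as they did for 22.8% of genes.

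**Figure D2:**
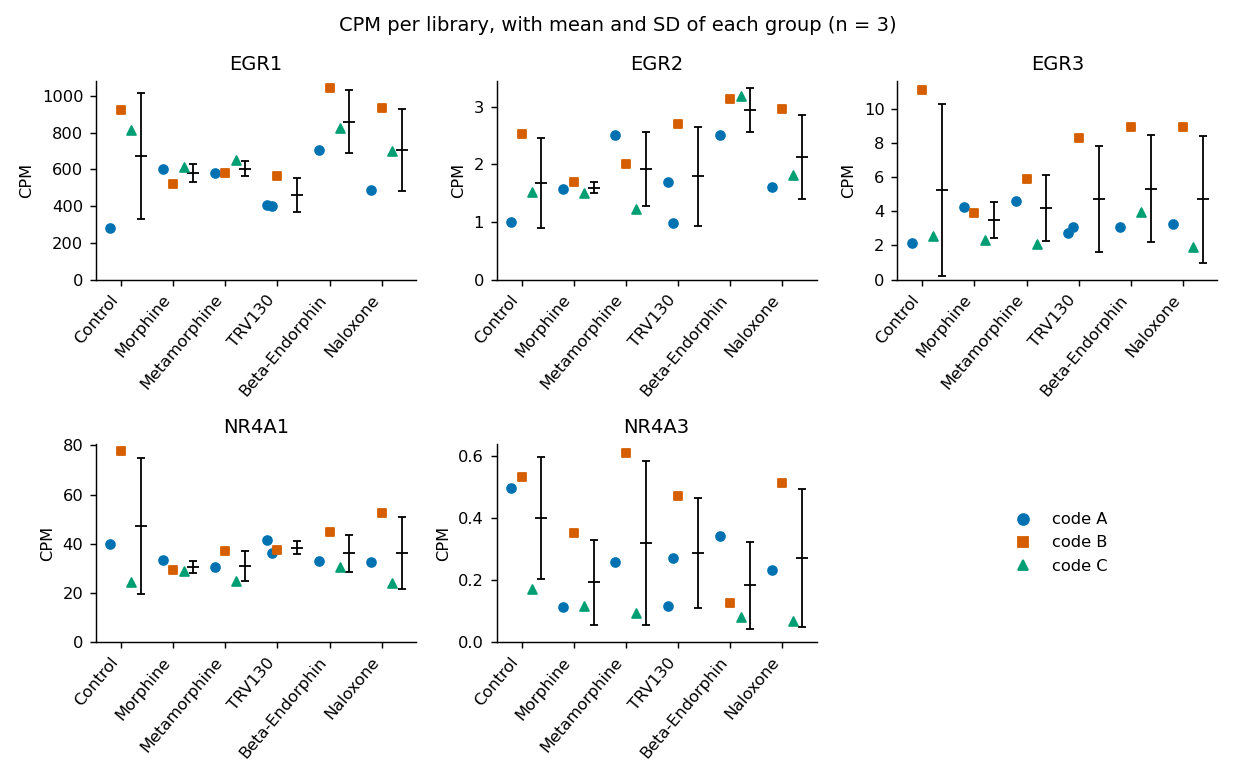
CPM of the 5 tested genes in each library by treatment, with colour and shape for the library code and, beside them, the mean and SD of the 3 libraries. For EGR1 the Control libraries run from 282 to 926 CPM, wider than any ligand group, and for NR4A1 Control 2 sits alone at 77.8 CPM.

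EGR2 was low throughout and reached its highest levels in Beta-Endorphin. Control held 0.993, 2.52 and 1.51 CPM, from 22, 57 and 35 reads. Beta-Endorphin held 2.51, 3.13 and 3.19 CPM, from 73, 75 and 79 reads. The lowest Beta-Endorphin library lay just below the highest Control, so the groups overlapped. Morphine gave 1.57, 1.69 and 1.502 CPM, Metamorphine 2.51, 2.00 and 1.23, TRV130 1.68, 0.988 and 2.70, and Naloxone 1.60, 2.96 and 1.81. The fitted value in Beta-Endorphin was 0.87 (SE 0.33, interval 0.17 to 1.57), with an unadjusted p of 0.0176 and an adjusted p of 0.136. That p misses the threshold, and 13.0% of all genes had one at least as small in this comparison. All 3 libraries were above their own Control, by 1.27, 0.30 and 1.04, as they were for 22.8% of genes. Without Control 1 the fitted value was 0.64, in the same direction. EGR2 in Naloxone pointed the same way with a smaller value. In Naloxone all 3 libraries were also above their Control, as 22.2% of genes were, with a fitted value of 0.35 (SE 0.33, adjusted p = 0.504), which was 0.15 without Control 1. The other ligands stood at -0.02, 0.27 and 0.11 in Morphine, Metamorphine and TRV130.

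EGR3, which shares the EGR zinc fingers and is known for its role in muscle spindle development, lies on chromosome 8 (chr8:22687659-22693302, minus strand, ENSG00000179388). Of the members it had the smallest p across library codes. Control held 2.17, 11.1 and 2.55 CPM, from 48, 250 and 59 reads, with Control 2 as the highest library of all 18. Code B ran from 3.87 to 11.1 CPM (7.81 ± 2.55, SD, n = 6), against 3.31 ± 0.843 in code A (n = 7) and 2.56 ± 0.813 in code C (n = 5). Morphine gave 4.27, 3.87 and 2.31 CPM, Metamorphine 4.57, 5.87 and 2.08, TRV130 2.74, 3.07 and 8.27, Beta-Endorphin 3.09, 8.90 and 3.95, and Naloxone 3.23, 8.91 and 1.92. In every ligand the library of code B was above those of code C, where there was one, and every ligand overlapped Control. The fitted values were -0.26 in Morphine (interval -1.03 to 0.51), -0.09 in Metamorphine, -0.17 in TRV130, 0.20 in Beta-Endorphin and -0.11 in Naloxone, each with an adjusted p of 0.706 or more. Without Control 1 the EGR3 value was -0.51 in TRV130, -0.11 in Beta-Endorphin and -0.40 in Naloxone. The mean of the 5 ligands went from -0.09 to -0.40. All 6 ligand libraries of code A lay above Control 1, by 0.33 to 1.05, and all 5 of code B lay below Control 2, by -0.31 to -1.498. Both held together for 5.6% of tested genes. In code C, 1 of 4 ligand libraries was above Control 3. An antisense gene, AC055854.1, overlaps EGR3 exons and was assigned 3 to 36 reads. Unstranded libraries do not tell which of these genes a read in the shared bases came from.

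EGR4, a family member known for its role in male germ cells, lies on chromosome 2 (chr2:73290929-73293705, minus strand, ENSG00000135625). It had 122 reads over the 18 libraries, from 1 to 14 in each, and was too low to be tested. Control held 14, 7 and 4 reads, and the most reads after Control 1 were the 13 of TRV130 2. All 6 ligand libraries of code A were below Control 1 in CPM, as they were for 31.0% of tested genes. In code C, 3 of 4 were above Control 3, for which the share of all genes is not given here. Control 1 held 20888 reads in otherwise silent genes, and the part of that in its EGR4 reads was not tested.

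NR4A1, also called NUR77, is the NR4A member most widely induced by calcium and growth signals and lies on chromosome 12 (chr12:52022832-52059507, plus strand, ENSG00000123358). Control held 39.8, 77.8 and 24.3 CPM (47.3 ± 27.5, SD, n = 3), and Control 2 was the highest of all 18 libraries. Morphine held 33.5, 29.2 and 29.15 CPM, and Metamorphine held 30.6, 37.15 and 25.0 CPM. These libraries lay within the Control range, above Control 3 and below Control 1. TRV130 held 41.35, 36.4 and 37.4 CPM. Beta-Endorphin held 33.15, 44.8 and 30.6 CPM. Naloxone held 32.8, 52.3 and 23.9 CPM, with the library of code B highest. Every ligand group overlapped Control. An antisense gene on the same exons, AC025259.3, held 204 to 542 reads beside the 528 to 1757 of NR4A1.

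The fitted NR4A1 values were all below 0, and none passed. They stood at -0.49 in Morphine (SE 0.22, interval -0.97 to -0.02, unadjusted p 0.0430, adjusted p = 0.336) and at -0.52 in Metamorphine (SE 0.22, interval -0.9975 to -0.05, unadjusted p 0.0326, adjusted p = 0.192). TRV130 stood at -0.31, Beta-Endorphin at -0.29 and Naloxone at -0.34, with adjusted p of 0.977, 0.384 and 0.344. A fitted value below 0 in all 5 ligands, which share Control, was found for 32.5% of tested genes. In CPM, 11 of 15 ligand libraries were below the Control of their code, a count that 33.1% of genes reached. The fitted values moved with single Control libraries. Without Control 2 they were -0.14, -0.16, 0.05, 0.07 and 0.04 in Morphine, Metamorphine, TRV130, Beta-Endorphin and Naloxone. Without Control 3 they were -0.73, -0.75, -0.50, -0.53 and -0.56. In code B all 5 ligand libraries were below Control 2, by -0.57 to -1.41, which 27.4% of genes shared. In code A, 5 of 6 were below Control 1 with a median of -0.25, and in code C, 1 of 4 was below Control 3 with a median of 0.15.

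**Figure D3:**
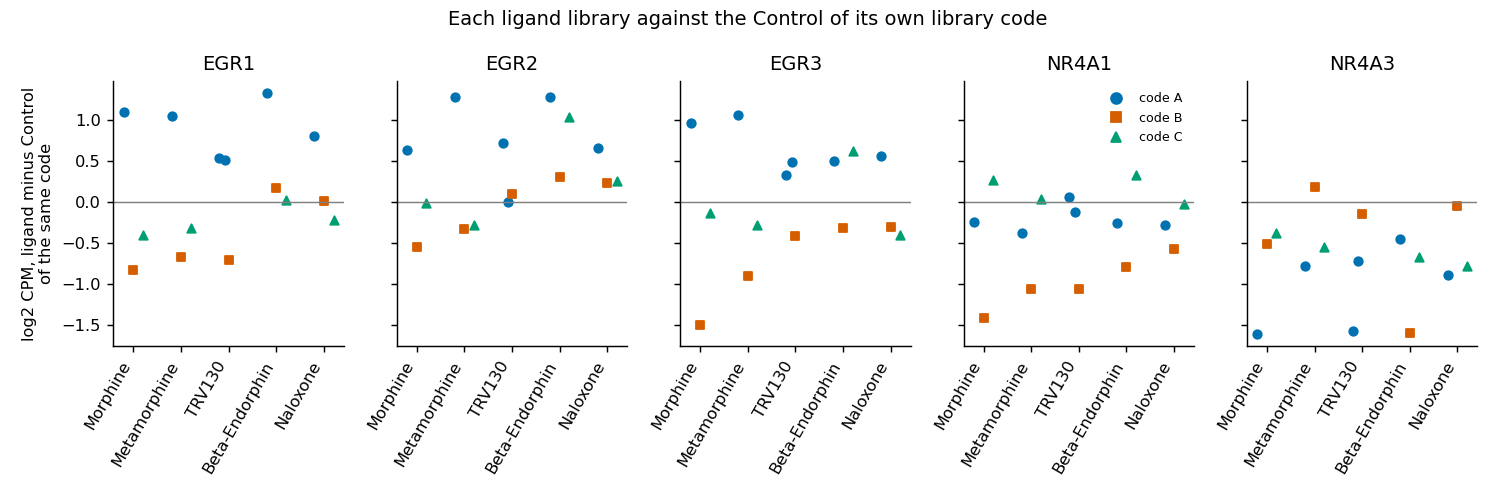
Difference in log2 CPM between each ligand library and the Control of its own code for the 5 tested genes, 1 point per ligand library. Code A lies above 0 in 6 of 6 libraries for EGR1 and EGR3, while code B lies below 0 in 5 of 5 for EGR3 and NR4A1.

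NR4A3, the third receptor of the family, lies on chromosome 9 (chr9:99821855-99866891, plus strand, ENSG00000119508). Control held 11, 12 and 4 reads. The ligand groups held 3, 11 and 3 in Morphine, 8, 15 and 2 in Metamorphine, 3, 8 and 14 in TRV130, 10, 3 and 2 in Beta-Endorphin, and 7, 14 and 2 in Naloxone. Every ligand group overlapped Control, and code C held the fewest reads in each group that has it, alone or tied. In CPM, 14 of 15 ligand libraries were below the Control of their code, which 9.1% of tested genes matched in that direction. The fitted values were -1.07 in Morphine (SE 0.62), -0.43 in Metamorphine, -0.81 in TRV130, -1.01 in Beta-Endorphin and -0.68 in Naloxone, each with an adjusted p of 0.290 or more. With single libraries left out, the Beta-Endorphin value ran from -1.95 without Beta-Endorphin 1 to -0.38 without Beta-Endorphin 2. The Metamorphine value ran from -0.75 without Metamorphine 2 to -0.19 without Control 1. The Morphine interval ran from -2.38 to 0.25, so at these counts values from a fall of 2.38 to a rise of 0.25 could not be told apart.

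NR4A2, also called NURR1 and known for its role in dopaminergic neurons, lies on chromosome 2 (chr2:156324432-156342348, minus strand, ENSG00000153234). It had 8 reads in Control 1, 1 in Metamorphine 1, 1 in Naloxone 1 and 0 in the other 15 libraries. Control 1 and Naloxone 1 are libraries with many reads in otherwise silent genes, and the part of that in the NR4A2 reads was not tested.

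For the mean of all 5 ligands against Control, 0 of 5 members passed and 0.0043% of genes did, which is 1 gene (MYH16). NR4A1 stood at -0.39 (SE 0.17, interval -0.75 to -0.04, unadjusted p 0.0332, adjusted p = 0.142), and 29.7% of all genes had an unadjusted p under 0.05. NR4A3 stood at -0.80 (SE 0.45, adjusted p = 0.239), EGR2 at 0.32 (SE 0.27, adjusted p = 0.420; 0.088 without Control 1), EGR3 at -0.09 and EGR1 at 0.01. Without Control 3 the NR4A1 value was -0.61 with an adjusted p of 0.0334, when 4083 genes passed, and without Control 2 it was -0.03. The median over all tested genes was -0.02. By DESeq2, 943 genes passed in this comparison, and no member was among them.

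**Figure D4:**
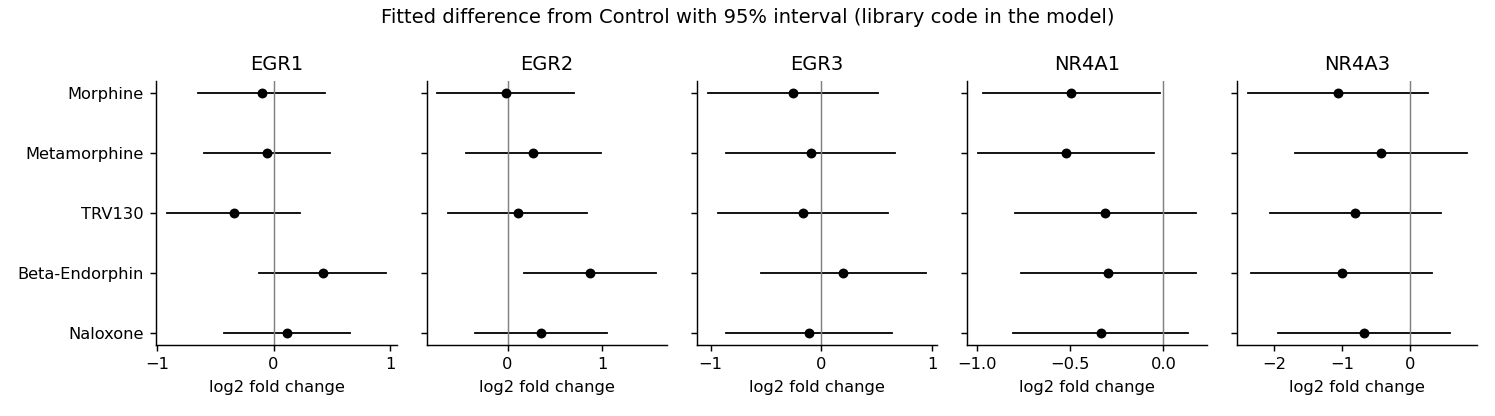
Fitted log2 fold change against Control with its 95% interval for the 5 tested genes in each ligand (horizontal axis scaled for each gene). The interval leaves out 0 for NR4A1 in Morphine and Metamorphine and for EGR2 in Beta-Endorphin, and the adjusted p was 0.336, 0.192 and 0.136 in these.

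The antagonist was also set against the other ligands. Naloxone against the mean of the other 4 gave values from -0.03 for EGR3 to 0.15 for NR4A3, with 0 of 5 members and 0.0% of genes passing (1.01% at an unadjusted p under 0.05, no member among them). EGR1 stood at 0.14 (interval -0.29 to 0.56) and NR4A1 at 0.07 (-0.30 to 0.44). For EGR1, EGR2, EGR3 and NR4A1 the intervals lay between -0.62 and 0.59, which does not show that the ligands act alike. In the test of any difference among the 6 groups 0 members and 0.0% of genes passed (9.53% at an unadjusted p under 0.05), and the adjusted p was 0.524 for EGR2, 0.553 for EGR1, 0.657 for NR4A1, 0.823 for NR4A3 and 0.960 for EGR3. Without the low-count filter that of EGR1 was 0.00715, when 2880 genes passed.

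**Figure D5:**
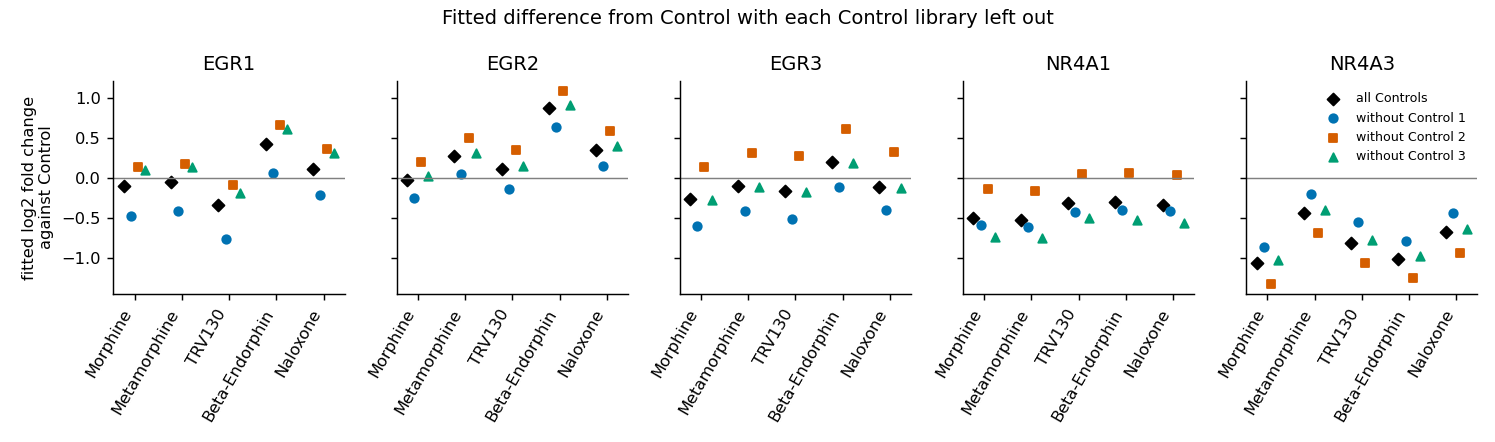
Fitted log2 fold change against Control for the 5 tested genes with all Controls and with Control 1, 2 or 3 left out in turn. The EGR1 values are lower without Control 1, where Beta-Endorphin stands at 0.06, and the NR4A1 values are nearer 0 without Control 2.

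Most of the tested members differed between library codes. In the test of any difference among the 3 codes 4 of 5 members passed, beside 57.8% of all tested genes, so that this share is not particular to them. EGR3 was 1.19 higher on the log2 scale in code B than in A, with C at -1.63 against B (adjusted p = 0.000205, edgeR quasi-likelihood test). NR4A1 was 0.36 higher in B than in A, with C at -0.75 against B (adjusted p = 0.00478). Its mean was 35.4 ± 3.95 CPM in A (SD, n = 7), 46.4 ± 17.2 in B (n = 6) and 26.6 ± 3.07 in C (n = 5). NR4A3 was 0.72 higher in B than in A, with C at -2.02 against B (adjusted p = 0.00884). EGR1 was 0.55 higher in B and 0.43 higher in C than in A (adjusted p = 0.0350), and that adjusted p ran from 0.00998 to 0.0976 with single libraries left out, under 0.05 in 12 of 18 such fits. Its mean was 495.5 ± 144 CPM in A, 762 ± 230 in B and 720.2 ± 95.6 in C. EGR2 had an adjusted p of 0.0734, and of 0.04999 in DESeq2. Without Control 1, Naloxone 1 and Naloxone 2, the libraries with the most reads in otherwise silent genes, NR4A3 and EGR1 no longer passed (adjusted p = 0.0708 and 0.277). The mean CPM of all 5 tested members was highest in code B.

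Likeness between patterns was measured as Pearson's r of log2 CPM, centred on the mean of each code, over the 18 libraries. It was computed for tested genes whose mean reached 1 CPM. The points share library depth and the same Controls, and r is a description only. EGR1 was most like ABTB2 (0.91), SIPA1L2 (0.89) and ASAP2 (0.88), and EGR3 most like GOLGA3 (0.89), KIAA1217 (0.88) and AC005839.1 (0.88). NR4A1 was most like PER1 (0.89), ZFP36 (0.87) and PTGIR (0.86), of which PER1 and ZFP36 are themselves early response genes. EGR2 was most like RUBCN (0.84), Z94721.2 (0.84) and SLC36A1 (0.83), and NR4A3, at its low counts, most like ZNF670-ZNF695 (0.82), AL358472.4 (0.80) and DNAH9 (0.79). Among the members, r was 0.73 for EGR1 with EGR2, 0.72 for EGR1 with EGR3 and 0.69 for EGR2 with EGR3. It was 0.51 for EGR3 with NR4A1 and 0.28 for EGR1 with NR4A1. PER1 stood at 46.9, 65.0 and 26.4 CPM and ZFP36 at 9.93, 23.7 and 10.7 CPM in Control 1, 2 and 3, so that both were highest in Control 2, as NR4A1 was. FOS, at 169, 408 and 465 CPM, was lowest in Control 1 among the Controls, as EGR1 was. Over all libraries EGR1 was lowest in Control 1, while FOS was lowest in Metamorphine 2, at 138.5 CPM. The r of FOS was 0.63 with EGR1 and 0.68 with NR4A1. Other early response genes differed in this. With EGR1, r was 0.80 for DUSP1, 0.71 for FOSB, 0.02 for IER2 and -0.32 for JUNB. With NR4A1 it was 0.69 for FOSB, 0.52 for IER2, 0.19 for JUNB and 0.12 for DUSP1. JUNB had -0.45 with EGR2 and with EGR3.

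The other genes of the pathway were read from lists of their roles, and none of their members passed in any ligand comparison or for the mean of the 5 ligands. Of 18 upstream factors, 15 stood above 0 for the mean of the ligands with a median of 0.22, beside -0.02 for all tested genes. The share of all genes above 0 is not given here, and no list was tested as a set. Counts above or below 0 in these lists are therefore a description, and they share the same Control libraries. ELK3, a ternary complex factor, stood at 0.40 (SE 0.12), CREB1 at 0.33 (SE 0.12) and MEF2B at -0.60 (SE 0.19), with adjusted p from 0.102 to 0.115. In the ERK cascade, 9 of 15 genes stood above 0 with a median of 0.11. HRAS was at -0.47 (SE 0.14) and MAPK3, which encodes ERK1, at -0.25 (SE 0.08). Of 10 cofactors, 9 were tested and 6 stood above 0, with HCFC1 at 0.50 (SE 0.19) and NAB1, a corepressor of EGR proteins, at 0.29 (SE 0.12).

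Of 34 other early response genes, 32 were tested, and 23 stood below 0 for the mean of the ligands with a median of -0.20, beside -0.02 for all genes. FOS was at -0.58 (SE 0.22, adjusted p = 0.118), IER2 at -0.29 (SE 0.09) and JUND at -0.31 (SE 0.12). Within codes, 11 of the 32 had every ligand library of code B below Control 2, among them FOS, FOSB, JUN, PER1 and ZFP36, beside 27.4% of all genes. In code C 13 of the 32 were below Control 3 in all 4 ligand libraries, beside 20.8% of all genes. In code A 7 were below Control 1 in all 6, beside 31.0%, and 7 above it, beside 34.7%. Of the textbook targets of EGR proteins, 5 of 10 stood above 0 with a median of -0.01. Within that list CDK5R1, an activator of the kinase CDK5, was at 0.45 (SE 0.13) and the growth factor PDGFA at -0.65 (SE 0.24). Of the textbook NR4A targets, 7 of 10 were tested and 5 stood below 0 with a median of -0.11, and the receptor gene RET was at 0.28 (SE 0.17). Against the library code, 13 of 18 upstream factors, 9 of 15 ERK cascade genes, 6 of 9 cofactors, 17 of 32 early response genes, 6 of 10 EGR targets and 6 of 7 NR4A targets passed, near the 57.8% of all genes for most lists.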

How the data were processed

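Per the labels' protocols, total RNA was treated with DNase I, libraries carried no strand information, and paired reads of 150 bp were taken. The authors deposited raw read counts per Ensembl gene in 1 table. Per the submitters' processing notes, the tools were FastQC, HISAT2, featureCounts and DESeq2 on the GRCh38 (hg38) build. The sources used here give neither their versions nor settings. Symbols, positions and exon lengths came from GENCODE 29, and 0 sample columns were left unused. No pair of libraries was identical.

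The deposited counts were fitted by edgeR 4.0.16 (R 4.3.3): filterByExpr with a minimum count of 10 (23231 genes kept), TMM scaling, and the robust quasi-likelihood test on all 18 libraries with a term for the library code and 1 mean per group. Two-sided p-values were adjusted over the 23231 genes by Benjamini-Hochberg, and 0.05 was the threshold. Log2 CPM used a prior count of 2, and TPM used the summed exon length. In counts simulated for Morphine against Control (22901 genes), the fit found 51% of the genes changed 2-fold and 88% of those changed 4-fold, and made 9 false calls. The simulated counts followed the code means and the dispersions of the fit itself, with no library that stood apart as Control 1 does. These shares therefore need not hold in the real comparisons or for members with few reads.

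The members and the gene lists were chosen with earlier results of these data known. The genes named in the text are the 7 members in every comparison, up to 3 of each list by smallest p, and the 3 genes most like each tested member. FOS in the Controls, FOSB, the r of DUSP1, JUNB and IER2, and the examples of genes within codes were named after their values were seen. Not every gene fitting this choice is reported here. Alternatives were DESeq2 1.42.0, RLE size factors, no filter, other block terms, the compared groups alone and each library left out. The fit without both the code term and Control 1, and that without Control 1, Naloxone 1 and Naloxone 2, were chosen after seeing the data.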

Additional observations from a re-analysis of the deposited data

Results flagged for a closer look

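NR4A2 stood at 0.361 CPM in Control 1, far above the other 6 libraries of code A, which held 0 or 1 read each. In all, 19 combinations of member and code were examined for a library far from the rest of its code, with a threshold that chance passes in about 5% of groups.

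The EGR3 ligand libraries lay on opposite sides of their Control in codes A and B. Every ligand library of code A was above its Control, with a median log2 difference of 0.53, and every ligand library of code B was below its Control, with a median of -0.42. The code A part held for 34.7% of tested genes, and both parts together for 5.6%. Each code has 1 Control library, and the difference between the codes was not tested. Control 1 is the library with the most reads in otherwise silent genes, and Control 2 had the highest EGR3 level of all libraries.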

How the results depend on the processing

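In the fit as reported no member passed against Control or between ligands. Over all settings, of 626 values of such member results 3 had an adjusted p under 0.05. These were NR4A1 for the mean of the ligands without Control 3 (adjusted p = 0.0334), and, without the low-count filter, for the mean (-0.35, adjusted p = 0.0406) and in Metamorphine (-0.49, adjusted p = 0.0470). The 626 leave out the test of any difference among groups, in which EGR1 had an adjusted p of 0.00715 without that filter. Without that filter 975, 2360, 171, 3316 and 2171 genes passed in Morphine, Metamorphine, TRV130, Beta-Endorphin and Naloxone, 4875 for the mean, 23 for Naloxone against the others and 2880 among groups. That fit gave all 46594 genes infinite prior degrees of freedom, against a median of 6.29. DESeq2 called 2 in Morphine, 4 in TRV130, 14 in Beta-Endorphin, 943 for the mean, 1 for Naloxone against the others and 36 among groups. For the mean, 0 genes passed without the code term, with the replicate block and in both settings added after seeing the data.

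Leaving out each library in turn gave 0 to 2 genes in Morphine, 0 to 1169 in Metamorphine, 0 to 3 in TRV130, 0 to 2770 in Beta-Endorphin, 1 to 4083 for the mean and 0 to 1 among groups, with 1169, 2770 and 4083 all without Control 3. EGR1 ran from -0.47 to 0.13 in Morphine, -0.41 to 0.18 in Metamorphine, -0.22 to 0.36 in Naloxone, -0.36 to 0.25 for the mean and -0.00623 to 0.24 for Naloxone against the others. EGR2 ran from -0.25 to 0.20 in Morphine, -0.19 to 0.51 in Metamorphine, -0.15 to 0.34 in TRV130 and -0.065 to 0.15 for Naloxone against the others. EGR3 ran from -0.67 to 0.14 in Morphine, -0.45 to 0.32 in Metamorphine, -0.51 to 0.28 in TRV130, -0.11 to 0.61 in Beta-Endorphin, -0.40 to 0.32 in Naloxone, -0.40 to 0.33 for the mean and -0.23 to 0.12 for Naloxone against the others. NR4A1 ran from -0.50 to 0.045 in TRV130, -0.53 to 0.068 in Beta-Endorphin, -0.56 to 0.036 in Naloxone, -0.61 to -0.031 for the mean and -0.081 to 0.15 for Naloxone against the others. NR4A3 ran from -0.15 to 0.36 for Naloxone against the others. For the codes, the adjusted p of EGR1 ran from 0.00998 to 0.0976 and that of EGR2 from 0.0169 to 0.223. It was 0.04999 for EGR2 in DESeq2, and, without Control 1, Naloxone 1 and Naloxone 2, 0.277 for EGR1 and 0.0708 for NR4A3.

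Values that did not pass also changed sign under other settings. EGR1 for the mean stood at -0.10 without the code term, -0.023 with the replicate block, -0.00711 with RLE size factors and -0.00688 in DESeq2, and EGR2 in Morphine at 0.026 without the filter. EGR3 stood at 0.28 in TRV130 with the replicate block and at 0.10 for Naloxone against the others without the code term. In the settings added after seeing the data, leaving out Control 1, Naloxone 1 and Naloxone 2 gave EGR2 -0.15 in TRV130, EGR3 -0.11 in Beta-Endorphin, EGR1 -0.25 in Naloxone and -0.39 for the mean, and, for Naloxone against the others, NR4A3 -0.53 and NR4A1 -0.092. Leaving out Control 1 and the code term gave EGR1 -0.032 in Beta-Endorphin, -0.29 in Naloxone and -0.48 for the mean, EGR2 -0.071 in Metamorphine, -0.18 in TRV130 and -0.000381 for the mean, and EGR3 -0.37 in Beta-Endorphin and 0.11 for Naloxone against the others. The causes of these shifts were not tested.

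Same-numbered libraries deviated together in 29 of 45 pairs (r over 0.1, median 0.34) and not in the rest, so the numbers were not taken as pairing the samples. Of 18 libraries, 13 were most like one with their own number, and 13 were most like one with their own code. Libraries of the same code deviated together in 36 of 45 pairs (median 0.43). Outside TRV130, and for TRV130 1, number and code coincide, so the code term already blocks these libraries by number. Low counts limit EGR4, NR4A2 and NR4A3.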
